A study of Caenorhabditis elegans with 52 samples.

Results

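The piRNAs described here are the low-abundance Oogenic piRNAs of Caenorhabditis elegans, 622 of the 14680 piRNAs measured. Each carries the class Oogenic and not Spermatogenic in the authors' deposited table, and averaged at least 1 and under 10 RPM over 4 control libraries, where RPM is the number of reads per 1000000 reads. The table held 1745 Oogenic piRNAs, of which 463 averaged 10 RPM or more, 659 averaged under 1 RPM and 1 had no value in the controls. The members were thus selected on their level in those 4 libraries, and every value set against them is a description without a test. Just inside the lower limit lay 21ur-7475 (1.00 RPM), 21ur-6789 (1.01 RPM) and 21ur-3430 (1.02 RPM), and just outside it 21ur-7179, 21ur-10072 and 21ur-1246, at 0.997, 0.998 and 0.999 RPM. Just inside the upper limit lay 21ur-5109 (9.87 RPM), 21ur-2748 (9.74 RPM) and 21ur-5778 (9.72 RPM), and just outside it 21ur-3158, 21ur-5755 and 21ur-6888, at 10.01, 10.04 and 10.04 RPM. The median member averaged 3.40 RPM in the controls, and the middle 50% lay between 1.83 and 5.75 RPM.

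piRNAs are short germline RNAs bound by Piwi proteins, PRG-1 in this species, and guide the silencing of foreign and unwanted transcripts. Each worm piRNA is transcribed from its own small unit, most of them in a pair of clusters on chromosome IV, and its precursor is capped and longer than the mature RNA. The 5′ end is processed, PARN-1 trims the 3′ end, and HENN-1 places a methyl group on the last nucleotide. PUP-1 is a poly(U) polymerase that adds uridines to RNA 3′ ends, and DISL-2 is the worm homolog of DIS3L2, a 3′ to 5′ exonuclease known for degrading uridylated RNAs. TOFU-5 is a factor that piRNA transcription needs. Some worm piRNAs are found mainly where the germline makes sperm and others where it makes oocytes, and the classes Spermatogenic and Oogenic name these sets.

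Small RNAs of whole day 1 adults were sequenced in 42 libraries, 2 for each of 21 groups, of which 22 libraries were steady-state and 20 belonged to a time course. In the steady state, disl-2(how27) and disl-2(tm5337) single mutants stood beside a disl-2 isogenic control, henn-1(tm4477); disl-2(how18) beside henn-1(tm4477), and parn-1(tm869); disl-2(tm5337) beside parn-1(tm869). The double mutants pup-1(how20); disl-2(how27) and pup-1(how50); disl-2(tm5337) stood beside pup-1(tm1021), with a paired control for pup-1, so these doubles differ from their single mutant in the pup-1 allele as well as in disl-2. In the time course every animal carried the degron allele gfp::aid::tofu-5(how48) and a TIR1 transgene driven by the germline promoter sun-1p, with or without disl-2(how27), and was given 4 mM auxin for 0, 2, 4, 6 or 12 h. These are called the TOFU-5 degron; disl-2(how27) and TOFU-5 degron strains, and the double mutants of pup-1 are also called the how27 double and the tm5337 double.

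Library depth ran from 8807176 to 52798564 reads, and where a piRNA is listed at 0 its true level may reach that of 3 reads, 0.0568 to 0.341 RPM, for counting error only. The median member was covered by 27.5 to 286.5 reads in steady-state libraries and by 5.5 to 37 reads in the time course. The 2 henn-1 libraries stood further apart than any other pair, with a chi-square of 57.8 per degree of freedom over their reads, against 1.96 to 18.1 in the other groups. The table holds piRNAs only, and no transcript of the mutated genes could be read from it to check the genotypes. No library separated oocyte-producing from sperm-producing germlines, so the class was taken as deposited. Whole animals were used, and fewer germ cells and less piRNA per germ cell cannot be told apart. The summed level of the members divided by that of the 1370 Spermatogenic piRNAs at the same control level ran from 0.217 to 1.46 over the libraries. That ratio is given below, and its part in each result was not tested.

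All 622 members lay on chromosome IV. Cluster b, toward the right end, held 573 of them (92.1%), and cluster a, left of the middle, held 49 (7.88%), against 15.5% of all 5614 piRNAs tested. A protein-coding gene enclosed 198 members (31.8%, against 35.4% of all tested), spread over 106 genes, of which 68 held a single member. The genes with the most members were jac-1, a p120 catenin, with 10, Y37A1A.4 with 8 and eps-8, an actin regulator, with 8. Members neighboured one another: 256 (41.2%) had another member as the next tested piRNA along the chromosome, against 18.2% of the other piRNAs tested. The sequence clones Y105C5B, Y105C5A and Y57G11C alone held 89, 71 and 65 of them. In 183 members (29.4%, against 26.4% of all tested) some library held reads divided between loci, and the piRNAs named in the tests below had whole reads unless sharing is stated.

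The henn-1 libraries held the highest levels of these piRNAs. Their summed level was 12654 and 12116 RPM in henn-1; disl-2(how18), 14568 and 13394 RPM in henn-1, 1804 and 1810 RPM in the isogenic control and 2964 and 3275 RPM in the pup-1 paired control. Of the 622, 563 (90.5%) were higher in both henn-1 libraries than in all 4 control libraries, beside 70.8% of all tested, with a median ratio of 5.13 beside 2.80. Lower in both henn-1 libraries were 2 members (0.322%, beside 2.67% of all tested), 21ur-7445 at 1.68 and 1.89 RPM and 21ur-5123 at 4.56 and 2.84 RPM in henn-1, named after their values were seen. The piRNA 21ur-8135, inside Y105C5B.8 and sharing reads, had the highest mean of any member in any group, at 98.1 and 91.7 RPM in henn-1; disl-2(how18), 114 and 217 RPM in henn-1 and 5.55 to 10.7 RPM in the controls. Next came 21ur-3935, at 126 and 149 RPM in henn-1; disl-2(how18), 134 and 81.0 RPM in henn-1 and 7.74 to 12 RPM in the controls. The remaining highest means belonged to 21ur-160, 21ur-5312 and 21ur-842, each of which lay between 54.0 and 168 RPM in the 4 libraries that lack henn-1. The members held 5.29% and 5.32% of all piRNA RPM in henn-1; disl-2(how18) and 4.54% to 5.5% in henn-1, against 2.20% to 3.81% in the controls.

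**Figure D1:**
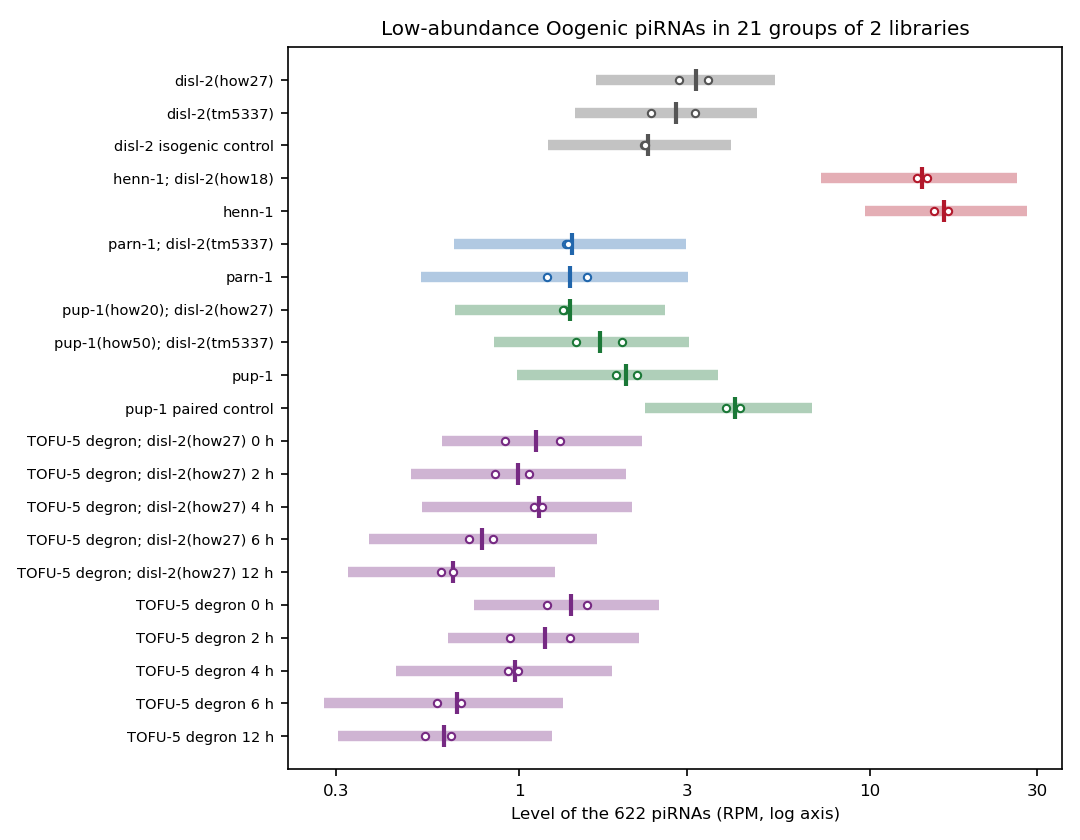
Level of the 622 low-abundance Oogenic piRNAs in RPM (log axis) in each group. Bars span the middle 50% of the members' group means, ticks mark their median and open circles the median in each library. The henn-1 groups have medians of 14.1 and 16.3 RPM, and the time-course groups lie at 1.41 RPM or below.

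Without PARN-1 the levels of the members spread out, as did those of other low-abundance piRNAs. The median member stood at 1.42 RPM in the parn-1; disl-2(tm5337) mutant and 1.40 RPM in parn-1, against 2.32 RPM in the isogenic control and 4.12 RPM in the paired control. Of the 622, 353 (56.8%) were lower in both parn-1 libraries than in all 4 controls, beside 75.7% of all tested, and 74 (11.9%) were higher, beside 6.13%. The median ratio of parn-1 to the controls was 0.412 for the members, 0.205 for the 463 abundant Oogenic piRNAs and 0.191 for the low-abundance Spermatogenic piRNAs. The members accounted for 6.05% and 6.60% of piRNA RPM in the parn-1; disl-2(tm5337) mutant and 7.98% and 7.44% in parn-1, a larger share than in any other group. Within the parn-1 libraries the 10 highest members carried 16.1% and 17.5% of the members' sum, against 4.68% to 6.37% in the control libraries. The rule held the members to 1 to 10 RPM on average in the controls, which limits the share there. From group means, low-abundance Spermatogenic piRNAs had 9.41% in parn-1, against 2.6% and 2.82% in the isogenic and paired controls. For piRNAs of neither class at the same control level it was 7.43%, against 2.24% and 2.03%. For abundant Oogenic piRNAs it was 15.96%, against 15.2% and 15.4%. The extremes, chosen after their values were seen, were 21ur-7753, with 70.6 and 69.4 RPM in parn-1 and a control mean of 8.41 RPM, and 21ur-7072, listed at 0 in both parn-1 libraries with a control mean of 7.96 RPM. Ranks of the members in parn-1 followed their ranks in the controls only loosely, with a Spearman's rho of 0.36 across the 622 piRNAs, against 0.60 for henn-1 and 0.74 for pup-1. Such coefficients are across piRNAs, which share their libraries and are not replicates. Each also rests on the narrow control range that the rule set.

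The disl-2 single mutants differed from the isogenic control mainly upward. The summed level was 2719 and 2287 RPM in disl-2(how27) and 2494 and 1930 RPM in disl-2(tm5337), against 1804 and 1810 RPM in the isogenic control. In disl-2(how27), 345 members (55.5%) were higher in both libraries, beside 69.1% of all tested, and 21 were lower (3.38%, beside 2.44%), with a median ratio of 1.35. In disl-2(tm5337), 257 (41.3%) were higher, beside 22.1% of all tested, and 150 (24.1%) were lower, beside 42.7%. The median ratio there was 1.18, while it was 0.736 for the abundant Oogenic and 0.810 for the low-abundance Spermatogenic piRNAs. The ratio to the Spermatogenic sum was 0.289 to 0.317 in disl-2(how27) and 0.512 to 0.578 in disl-2(tm5337), against 0.349 to 0.363 in the isogenic control. Both alleles were set against the same control libraries.

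Between pup-1 and its paired control the members were mostly lower, at 1950 and 1663 RPM in sum in pup-1 and 2964 and 3275 RPM in the paired control. Of the 622, 462 (74.3%, beside 73.8% of all tested) were lower in both pup-1 libraries and 61 (9.81%, beside 9.85%) were higher, with a median ratio of 0.475. The control groups themselves differed: the isogenic control was lower than the paired control in 443 members (71.2%, beside 48% of all tested), with a median ratio of 0.537. In the TOFU-5 degron strain at 0 h, 378 members (60.8%, beside 46.2% of all tested) were lower than in all 4 controls, with a median ratio of 0.422. Low-abundance Spermatogenic piRNAs had a median ratio of 0.899 in the same libraries. The tests that follow use none of the 4 libraries that chose the members.

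Mutants that carry a disl-2 allele were compared with the henn-1, parn-1 and pup-1 single mutants and with the degron strain at 0 h, and in the pup-1 comparisons the pup-1 allele and disl-2 cannot be told apart. The test was limma on log2(RPM + 0.5) over all 5614 piRNAs with a control mean of at least 1 RPM. The words rose and fell are kept for an adjusted p under 0.05 (limma, Benjamini-Hochberg adjustment), and each adjusted p given is of this kind. In henn-1; disl-2(how18) against henn-1, 47 members (7.56%) rose and 103 (16.6%) fell, beside 16.5% and 9.39% of all tested. The median log2 change was -0.22 for the members and 0.15 for all tested, and after the libraries were rescaled to equal medians, a shift of -0.17, 33 rose and 135 fell, beside 13.4% and 12.4% of all tested. Of the low-abundance Spermatogenic piRNAs 298 of 1370 rose and 25 fell, and of the abundant Oogenic piRNAs 36 of 463 rose and 88 fell. The ratio to the Spermatogenic sum was 1.01 and 0.960 in henn-1; disl-2(how18), against 1.46 and 1.24 in henn-1.

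The largest fall belonged to 21ur-4910, at 19 and 14.4 RPM in henn-1; disl-2(how18) against 61.1 and 167 RPM in henn-1 (log2 -2.58 ± 0.47 SE, adjusted p = 0.0214). Close to it was 21ur-4149, at 3.46 and 3.37 RPM in henn-1; disl-2(how18) against 21.2 and 20.6 RPM in henn-1 (log2 -2.45 ± 0.24, adjusted p = 0.0187). The libraries of each group agreed closely for 21ur-4149, and for 21ur-4910 the henn-1 libraries differed from each other while neither overlapped the double mutant. Falls of 2.05 and 2.02 on the log2 scale were called for 21ur-3483 and for 21ur-1342, which lies inside the potassium channel gene egl-23. The largest rise was that of 21ur-7153 in cluster a, at 21.1 and 22.7 RPM in henn-1; disl-2(how18) against 7.44 and 2.75 RPM in henn-1 (log2 2.14 ± 0.42, adjusted p = 0.0227). It was followed by 21ur-5485, at 59.6 and 39.7 RPM in henn-1; disl-2(how18) against 16.6 and 7.76 RPM in henn-1 (log2 2.05), 21ur-5386 (log2 1.91) and 21ur-1169 (log2 1.89). In each of these the groups did not overlap. The counts rested on single libraries: without henn-1; disl-2(how18) replicate 1 or 2, 10 and 6 members rose and 25 and 12 fell, and without henn-1 replicate 1 or 2, 191 and 96 rose and 223 and 238 fell.

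In parn-1; disl-2(tm5337) against parn-1 the calls went both ways. Here 46 members (7.4%) rose and 41 (6.59%) fell, beside 16% and 5.02% of all tested. The median log2 change was 0.01, against 0.21 for all tested, and after rescaling, a shift of -0.31, 18 rose and 123 fell, beside 7.98% and 13.4% of all tested, so the balance of directions depends on the scaling in both. Among low-abundance Spermatogenic piRNAs 298 rose and 5 fell, and among abundant Oogenic piRNAs 31 rose and 68 fell. The ratio to the Spermatogenic sum was 0.634 and 0.880 in parn-1; disl-2(tm5337), against 1.34 and 1.28 in parn-1. Without parn-1; disl-2(tm5337) replicate 1, 21 rose and 15 fell, without its replicate 2, 65 rose and 73 fell, and without either parn-1 library limma called no member.

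Among members with whole reads, 21ur-4953 inside the pheromone receptor gene daf-38 fell to 2.27 and 3.49 RPM in the parn-1; disl-2(tm5337) mutant, against 12.4 and 10.2 RPM in parn-1 (log2 -1.82 ± 0.29, adjusted p = 0.000703). A larger fall with wider spread was called for 21ur-4485, at 0.438 and 3.45 RPM in the parn-1; disl-2(tm5337) mutant against 11 and 7.02 RPM in parn-1 (log2 -2.27 ± 0.45). Falls were also called for 21ur-2474 inside acr-24 (log2 -1.60) and 21ur-2676 (log2 -1.48). The largest rise was that of 21ur-5766 inside lin-33 in cluster a, at 5.86 and 4.94 RPM in the parn-1; disl-2(tm5337) mutant against 1.13 and 0.595 RPM in parn-1 (log2 2.14 ± 0.32, adjusted p = 0.000469). In 21ur-1280 the double mutant held 4.10 and 3.97 RPM, against 0.813 and 0.476 RPM in parn-1 (log2 2.00 ± 0.32, adjusted p = 0.000691). Both piRNAs had control means over 7 RPM, so that the double mutant stood nearer their control level than parn-1 did. Smaller rises were called for 21ur-7489 (log2 1.60) and for 21ur-6701 in cluster a (log2 1.58).

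Of the 4 double mutants, the how27 double had the most falls among the members, on the deposited scale and after rescaling. The tm5337 double had fewer falls than henn-1; disl-2(how18) on the deposited scale, 88 against 103, and more after rescaling, 142 against 135. Counts of the henn-1, parn-1 and pup-1 backgrounds come from separate fits, and no test compared them. In pup-1(how20); disl-2(how27) against pup-1, 31 members (4.98%) rose and 179 (28.8%) fell, beside 20.6% and 13.2% of all tested. The median log2 change was -0.47 for the members, -0.09 for abundant Oogenic piRNAs, 0.36 for low-abundance Spermatogenic piRNAs and 0.06 for all tested, and after rescaling 31 members rose and 229 fell, beside 22.3% and 18.1% of all tested. In pup-1(how50); disl-2(tm5337) against the same pup-1 libraries, 32 members (5.14%) rose and 88 (14.1%) fell, beside 18% and 6.82% of all tested. The median was -0.24 for the members, 0.26 for abundant Oogenic piRNAs and 0.25 for low-abundance Spermatogenic piRNAs, and rescaling, a shift of -0.12, gave 25 rises and 142 falls, beside 17.6% and 11.6% of all tested. Spermatogenic piRNAs of the same control level rose in 372 and 230 cases and fell in 42 and 35. The ratio to the Spermatogenic sum was 0.230 and 0.234 in pup-1(how20); disl-2(how27) and 0.324 and 0.336 in pup-1(how50); disl-2(tm5337), against 0.555 and 0.568 in pup-1.

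**Figure D2:**
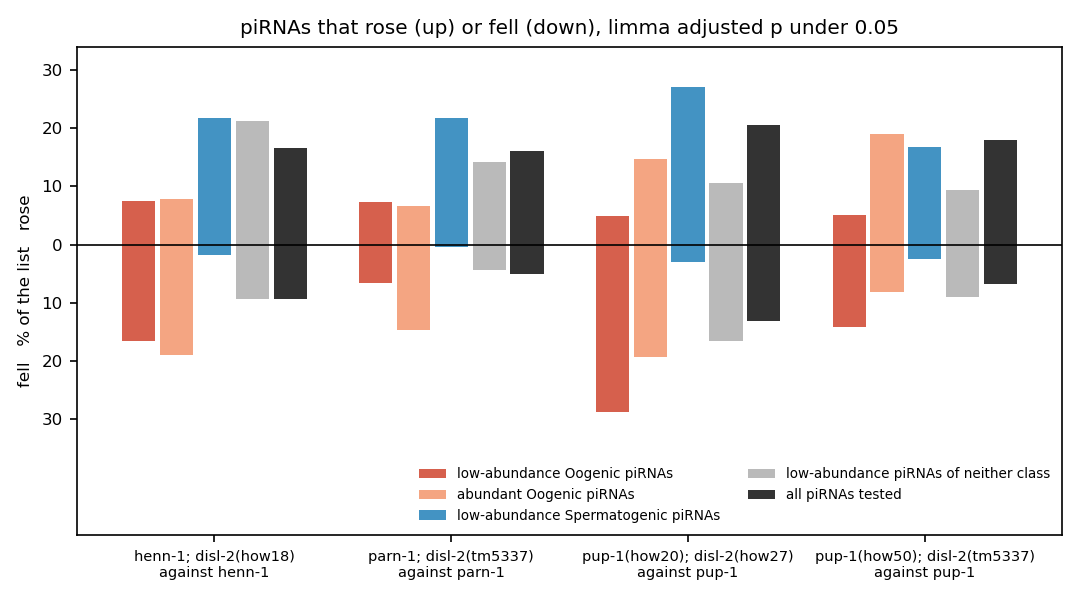
Percent of each list of piRNAs that rose (above the line) or fell (below it) with limma at an adjusted p under 0.05 in the 4 double mutants. Of the low-abundance Oogenic piRNAs 7.56%, 7.4%, 4.98% and 5.14% rose, against 16.5%, 16%, 20.6% and 18% of all piRNAs tested.

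The piRNA 21ur-5515, inside the ligand-gated channel gene lgc-8, fell furthest, to 2.28 and 3.14 RPM in the how27 double, against 14.4 and 22 RPM in pup-1 (log2 -2.53 ± 0.33, adjusted p = 1.7e-06). In the tm5337 double it stood at 11.1 and 8.53 RPM (log2 -0.84, adjusted p = 0.0609), which did not pass. By contrast 21ur-5485, which had risen in the henn-1 background, fell in both doubles, to 4.47 and 5.26 RPM in the how27 double and 6.67 and 4.58 RPM in the tm5337 double, against 21 and 20.5 RPM in pup-1 (log2 -1.99 and -1.81, adjusted p = 2.7e-05 and 0.000205). Other large falls with how27 were those of 21ur-1215 (log2 -2.14) and 21ur-5166 inside srv-14 (log2 -2.12). With tm5337 they were those of 21ur-3878, at 1.5 and 1.26 RPM against 6.30 and 5.25 RPM in pup-1, and 21ur-5419 inside noah-2, at 2.86 and 2.05 RPM against 9.73 and 8.17 RPM in pup-1.

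The largest rise was that of 21ur-5045 inside the urocanate hydratase gene uroc-1, at 6.12 and 5.99 RPM in the how27 double and 5.13 and 3.53 RPM in the tm5337 double, against 0.624 and 0.579 RPM in pup-1 (log2 2.57 ± 0.33 and 2.11 ± 0.33, adjusted p = 1.52e-06 and 4.95e-05). A similar pattern held for 21ur-12510, at 7.68 and 6.73 RPM in the how27 double and 5.77 and 5.21 RPM in the tm5337 double, against 1.90 and 1.42 RPM in pup-1 (log2 1.84 and 1.48). The atlastin gene atln-2 encloses 2 members, and they went opposite ways. There 21ur-6782 rose to 1.3 and 8.21 RPM in the how27 double and 6.54 and 2.89 RPM in the tm5337 double, against 0.374 and 0.418 RPM in pup-1 (log2 2.14 and 2.45), with wide spread between replicates. Its neighbour 21ur-619 fell to 0.804 and 0.323 RPM in the how27 double and 0.940 and 0.842 RPM in the tm5337 double, against 4.12 and 3.6 RPM in pup-1 (log2 -2.07 and -1.65). Rises were also called for 21ur-5321 inside ilcr-1 with how27 (log2 1.80) and 21ur-7485 with tm5337 (log2 1.40).

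For the how27 double, 48 members rose without its replicate 1, 19 without its replicate 2, and 18 and 10 without pup-1 replicates 1 and 2, which also brought the falls to 74 and 98. For the tm5337 double, leaving out its own replicates 1 and 2 gave 4 and 33 rises and 28 and 40 falls, and leaving out pup-1 replicates 1 and 2 gave 19 and 8 rises and 20 and 31 falls. Rises in the tm5337 double also came to 54 without either how27 double library, whose spread enters the same fit.

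By position the members of cluster a and cluster b diverged in the henn-1 and parn-1 backgrounds. In henn-1; disl-2(how18), 16 of the 49 members in cluster a rose and 0 fell (median log2 0.62), with 25 past an unadjusted p of 0.05, while in cluster b 31 of 573 rose and 103 fell (median log2 -0.27). In parn-1; disl-2(tm5337), 13 of 49 in cluster a rose and 0 fell (median log2 0.52), with 23 past an unadjusted p of 0.05, while in cluster b 33 rose and 41 fell (median log2 -0.03). All tested piRNAs of cluster a went the same way. In henn-1; disl-2(how18), 390 of 869 rose (44.9%, beside 32.7% of the members there) and 2 fell. An unadjusted p under 0.05, in either direction, was reached by 538 of these 869, beside 25 of the 49 members. In parn-1; disl-2(tm5337), 326 rose (37.5%, beside 26.5%) and 1 fell, and 476 of the 869 reached an unadjusted p under 0.05, beside 23 of the 49 members. Of all 4724 tested in cluster b, 533 (11.3%) rose and 524 (11.1%) fell in henn-1; disl-2(how18), beside 5.41% and 18% of the members there. In parn-1; disl-2(tm5337), 574 (12.2%) rose and 281 (5.95%) fell in cluster b, beside 5.76% and 7.16% of the members. With pup-1 the members of cluster a were not above the rest. In pup-1(how20); disl-2(how27), 1 rose, 21ur-7445, and 12 fell (median log2 -0.59), and in pup-1(how50); disl-2(tm5337), 1 rose, 21ur-8284 with shared reads, and 8 fell (median log2 -0.41). Those 2 names were chosen after their values were seen. Of all 869 tested piRNAs of cluster a, 228 rose and 55 fell in the how27 double (median log2 0.26), and 163 rose and 31 fell in the tm5337 double (median log2 0.23). After rescaling, the cluster a medians of the members were 0.45, 0.32, -0.65 and -0.52 in the same order of mutants. No test set cluster a against cluster b.

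**Figure D3:**
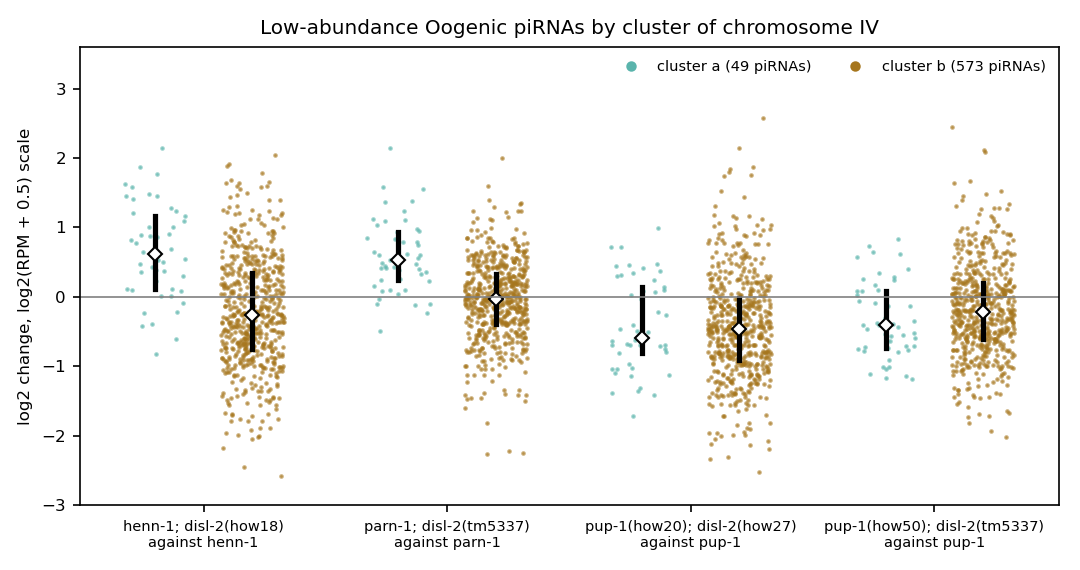
Log2 change of each low-abundance Oogenic piRNA, on the log2(RPM + 0.5) scale, in the 4 double mutants against their single mutants, by cluster of chromosome IV. Diamonds mark medians and black bars the middle 50%, and cluster a has medians of 0.62 and 0.52 in the henn-1 and parn-1 backgrounds and -0.59 and -0.41 in the pup-1 doubles.

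The share of members that fell differed between 4 groups of members of equal size by control mean, without a test of the difference. In pup-1(how20); disl-2(how27), falls took 16.7%, 26.5%, 30.3% and 41.7% of the members from the lowest to the highest group. In henn-1; disl-2(how18) they took 19.9%, 22.6%, 15.5% and 8.33% over the same groups. In pup-1(how50); disl-2(tm5337) they took 5.13%, 16.1%, 14.2% and 21.2%, and in parn-1; disl-2(tm5337) 6.41%, 5.81%, 9.03% and 5.13%. Shares of all tested piRNAs at the same control levels were not counted. Over all members together, a pseudocount of 0.1 in place of 0.5 RPM gave 177 falls in place of 179 in the how27 double. It gave 101 in place of 103 in henn-1; disl-2(how18). Members with divided reads and those with whole reads fell at like rates in some comparisons, at 29% and 28.7% in pup-1(how20); disl-2(how27) and 15.8% and 16.9% in henn-1; disl-2(how18). In parn-1; disl-2(tm5337) the rates differed, with 8.74% and 5.69% falling and 4.37% and 8.66% rising. Over hours of auxin in TOFU-5 degron; disl-2(how27), 34.4% and 24.6% fell.

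Across the henn-1, parn-1 and pup-1(how20); disl-2(how27) comparisons and the degron strain at 0 h, which share no library, 272 members (43.7%) were called in none and 40 (6.43%) were called in opposite directions, beside 39.1% and 4.88% of all tested. No member rose in 3 or more of them, and 3 (0.482%) fell in 3, beside 0.748% and 0.196% of all tested. The first is 21ur-2671 inside tag-273, at 14 and 12.2 RPM in henn-1; disl-2(how18) against 26.5 and 27.7 RPM in henn-1, at 0.159 and 0.0405 RPM in the parn-1; disl-2(tm5337) mutant against 0.361 and 0.476 RPM in parn-1, and at 1.65 and 1.38 RPM in pup-1(how20); disl-2(how27) against 4.80 and 3.28 RPM in pup-1 (log2 -1.02, -0.62 and -1.15). In the parn-1; disl-2(tm5337) libraries 3 reads are 0.120 and 0.122 RPM, so its fall there rests on few reads and is uncertain. The others, 21ur-1706 and 21ur-14329, both lie inside the dynein light chain gene dlc-3 and share reads, with nearly equal values in every library, and count as 1 uncertain observation. They stood at 17.1 and 16.3 RPM in henn-1; disl-2(how18) against 39.4 and 28.4 RPM in henn-1 for 21ur-1706 (log2 -0.98), at 0.379 and 0.730 RPM in the parn-1; disl-2(tm5337) mutant against 1.94 and 1.27 RPM in parn-1, and at 3.64 and 2.74 RPM in pup-1(how20); disl-2(how27) against 9.65 and 8.45 RPM in pup-1 (log2 -1.38). Of the 41 members that fell in parn-1; disl-2(tm5337), 21 (51.2%) also fell in pup-1(how20); disl-2(how27), which is 11.7% of the 179 that fell there. Over all tested the same overlap was 82 piRNAs, 29.1% of the falls in parn-1; disl-2(tm5337) and 11% of those in pup-1(how20); disl-2(how27). Of the 47 that rose in henn-1; disl-2(how18), 22 (46.8%) fell in pup-1(how20); disl-2(how27), while over all tested 101 of 928 (10.9%) did. Falls in pup-1(how20); disl-2(how27) took 28.8% of all members to begin with, beside 13.2% of all tested. Of the 46 members that rose in parn-1; disl-2(tm5337), 4 (8.70%) also rose in pup-1(how20); disl-2(how27), beside 39% over all tested. Not every overlap is given, and none was tested.

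**Figure D4:**
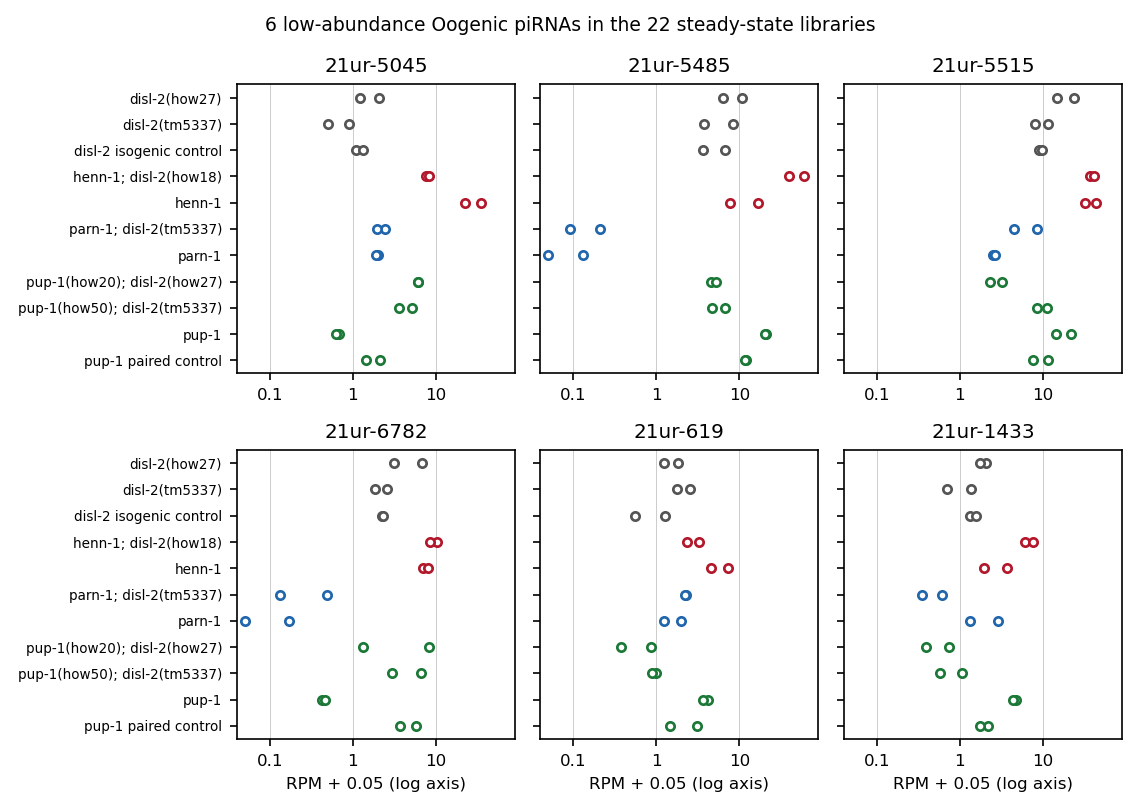
Level of 6 low-abundance Oogenic piRNAs in each of the 22 steady-state libraries, as RPM + 0.05 on a log axis, with 1 circle per library. The piRNA 21ur-5045 stands at 0.579 and 0.624 RPM in pup-1 and above 3 RPM in both pup-1 doubles, and 21ur-5485 stands at 20.5 and 21 RPM in pup-1 and below 0.2 RPM in the 4 libraries without PARN-1.

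In the degron strains at 0 h limma called 0 of the 622 members in either direction, beside 0% and 0.0356% of all tested, and limma voom also called 0. With a replicate block 2 rose and 15 fell, though the labels do not pair the samples. At an unadjusted p under 0.05, 3 were higher (0.482%) and 26 lower (4.18%), beside 0.623% and 8.28% of all tested. The summed level was 835 and 1170 RPM in TOFU-5 degron; disl-2(how27) and 1037 and 1303 RPM in TOFU-5 degron, ranges that overlap. The median log2 change was -0.18 for the members and -0.16 for all tested, and rescaling, a shift of 0.12, left the members at -0.09.

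After auxin was given the members declined in both strains on the deposited RPM scale, while after rescaling to equal medians their median slope was 0.01 per h in both. The summed level averaged 1003 ± 237, 924 ± 130, 1007 ± 43.3, 817 ± 87.6 and 612 ± 13.6 RPM (SD, n = 2) at 0, 2, 4, 6 and 12 h in TOFU-5 degron; disl-2(how27), and 1170 ± 188, 1016 ± 221, 879 ± 12.4, 663 ± 86.2 and 617 ± 40.9 RPM in TOFU-5 degron. At 4 h the libraries of the strains did not overlap, at 976 and 1037 RPM in TOFU-5 degron; disl-2(how27) and 888 and 870 RPM in TOFU-5 degron. At 6 h they did not overlap either, at 755 and 879 RPM in TOFU-5 degron; disl-2(how27) and 724 and 602 RPM in TOFU-5 degron, while at 0, 2 and 12 h they did. The sum of all piRNAs did not overlap at 4 h either, at 35571 and 34454 RPM in TOFU-5 degron; disl-2(how27) and 30256 and 34138 RPM in TOFU-5 degron. At 6 h that sum overlapped, at 24945 and 26886 RPM and 26538 and 22636 RPM in the same order. A larger part of the members than of each list beside them was left, by a margin that differed between lists, and no test set the lists against each other. At 12 h 61.1% of the summed 0 h level was left in TOFU-5 degron; disl-2(how27) and 52.8% in TOFU-5 degron. For low-abundance Spermatogenic piRNAs 47.9% and 33.4% were left, and for abundant Oogenic piRNAs 57.2% and 43.0%. For piRNAs of neither class at the same control level 54.6% and 44.1% were left. The median member kept 55.9% in TOFU-5 degron; disl-2(how27) and 45.1% in TOFU-5 degron, against 49.9% and 35.8% for all tested. The median was 54.2% and 41.1% for abundant Oogenic piRNAs and 52.4% and 38.7% for low-abundance piRNAs of neither class. Both 12 h libraries lay below both 0 h libraries in 365 members (58.7%) in TOFU-5 degron; disl-2(how27), beside 76.4% of all tested, and above them in 21 (3.38%), beside 1.57%. They lay below in 435 (69.9%) in TOFU-5 degron, beside 86.2%, and above in 10 (1.61%), beside 1.02%.

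**Figure D5:**
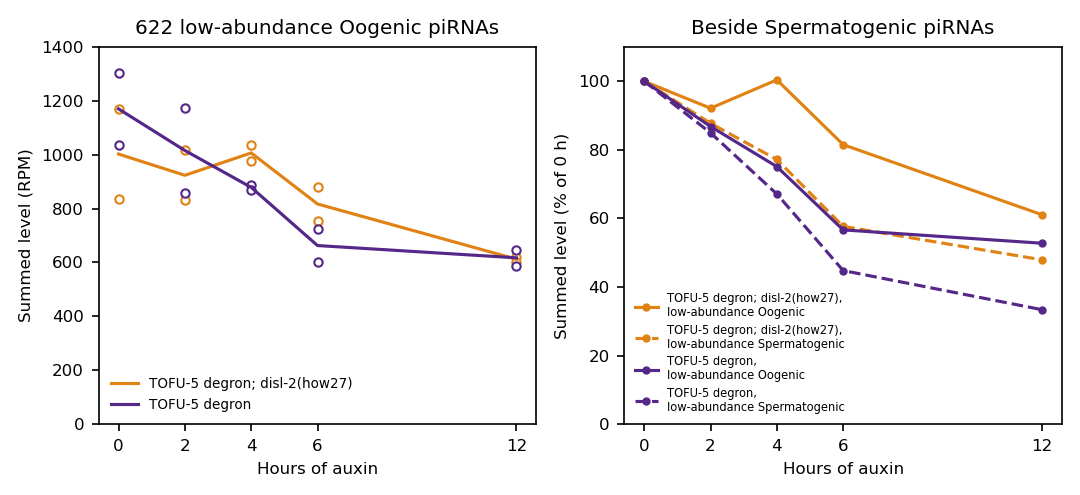
Left, summed level of the 622 low-abundance Oogenic piRNAs in RPM against hours of auxin, with a circle per library and lines through the means of 2. Right, mean summed level as a percent of 0 h for these piRNAs (solid) and for low-abundance Spermatogenic piRNAs (dashed), which end at 61.1% and 47.9% in TOFU-5 degron; disl-2(how27) and at 52.8% and 33.4% in TOFU-5 degron.

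In a regression of log2(RPM + 0.5) on hours over all 20 libraries, 171 members (27.5%) fell and 2 rose in TOFU-5 degron; disl-2(how27), beside 51.1% and 0.143% of all tested, and 304 (48.9%) fell and 0 rose in TOFU-5 degron, beside 73.3% and 0.125%. The direction is that of the deposited scale: after rescaling to equal medians, a shift of 0.07 and 0.10 per h, 0 fell and 8 rose in TOFU-5 degron; disl-2(how27), beside 0.98% and 1.25% of all tested, and 13 fell and 80 rose in TOFU-5 degron, beside 9.78% and 8.76%. In TOFU-5 degron; disl-2(how27), 83 fell without its 0 h replicate 2 and 60 without its 12 h replicate 2. The members' median slope was -0.04 per h in TOFU-5 degron; disl-2(how27) and -0.06 per h in TOFU-5 degron, against -0.06 and -0.09 per h for all tested. Over the same 4 groups by control mean, falls were called in 6.41%, 18.1%, 34.2% and 51.3% of members in TOFU-5 degron; disl-2(how27) and in 30.1%, 37.4%, 63.9% and 64.1% in TOFU-5 degron. Shares of all tested piRNAs at those levels were not counted here either. Over all members together, a pseudocount of 0.1 gave 176 falls in TOFU-5 degron; disl-2(how27) and 307 in TOFU-5 degron.

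Single members declined at different rates. In TOFU-5 degron; disl-2(how27) the steepest slope among members with separate 0 h and 12 h libraries was that of 21ur-842, at 2.77 and 5.45 RPM at 0 h and 1.25 and 1.20 RPM at 12 h (slope -0.13 ± 0.04 per h, adjusted p = 0.00531). Slopes of -0.13 per h were also called for 21ur-5386 and for 21ur-4511, and -0.12 per h for 21ur-5255. After rescaling to equal medians 21ur-842, 21ur-5386, 21ur-4511 and 21ur-5255 kept negative slopes but lost their calls. On the deposited scale the piRNA 21ur-169, inside R05A10.2, rose in that strain, at 5.18 and 5.82 RPM at 0 h and 5.99 and 10.9 RPM at 12 h (slope 0.06 ± 0.02 per h, adjusted p = 0.0488). The other called rise was that of 21ur-4149, at 0.227 and 0.577 RPM at 0 h and 0.849 and 2.40 RPM at 12 h (adjusted p = 0.0299), named after its values were seen. Leaving out the 12 h replicate 2 of that strain ended both calls, and leaving out any of 10 other libraries, replicates of 0 to 6 h in either strain, left 1 rise.

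In TOFU-5 degron the steepest slopes were those of 21ur-183, at 3.26 and 4.98 RPM at 0 h, 2.02 and 3.04 RPM at 4 h and 0.488 and 0.638 RPM at 12 h (slope -0.19 ± 0.03 per h, adjusted p = 4.01e-06), and of 21ur-5833, at 5.14 and 5.61 RPM at 0 h and 0.781 and 0.766 RPM at 12 h (slope -0.17 ± 0.02 per h, adjusted p = 2.02e-06). They were followed by 21ur-7136 (-0.16 per h) and 21ur-2794 (-0.15 per h). After rescaling 21ur-183 and 21ur-5833 kept their calls, while 21ur-7136 and 21ur-2794 kept negative slopes but lost theirs. The shallowest called slopes belonged to 21ur-3036, at 5.67 and 4.73 RPM at 0 h and 3.12 and 2.93 RPM at 12 h (-0.05 per h, adjusted p = 0.0422), 21ur-5419, 21ur-5560 and 21ur-2378. After rescaling all 4 of these had positive slopes. The half-life of the summed level of all members, fitted without a pseudocount, was 16.8 h in TOFU-5 degron; disl-2(how27) and 12.8 h in TOFU-5 degron. Half-lives of single members came from slopes of log2(RPM + 0.5), a scale that lengthens those of low piRNAs. Among members with a called fall alone, which leaves out the slower ones, their median was 12.6 h over 171 in TOFU-5 degron; disl-2(how27) and 11.5 h over 304 in TOFU-5 degron. These medians and the half-lives of the sum are different measures.

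The slopes of the strains were compared directly as an interaction. Limma called 0 of the 622 members in either direction, beside 0% of all tested, and limma voom also called 0. At an unadjusted p under 0.05, 30 slopes were higher (4.82%) and 1 lower (0.161%) in TOFU-5 degron; disl-2(how27), beside 10.4% and 0.16% of all tested. The median difference was 0.02 per h for the members and 0.03 per h for all tested, and after rescaling it was -0.01 per h for the members. On the deposited scale 430 members (69.1%, beside 79.4% of all tested) had the higher slope in TOFU-5 degron; disl-2(how27). The ratio to the Spermatogenic sum was 0.217 and 0.233 at 0 h and 0.285 and 0.291 at 12 h in TOFU-5 degron; disl-2(how27), and 0.236 and 0.257 at 0 h and 0.376 and 0.405 at 12 h in TOFU-5 degron.

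Some members were near the limit of counting. Listed at 0 in 7 of the 38 libraries the rule did not use, the most of any member, were 21ur-1288, 21ur-15421 and 21ur-3699. In henn-1; disl-2(how18) and henn-1 the same piRNAs held 1.89 to 11 RPM, and in the control libraries 0.335 to 2.43 RPM. Over the libraries, 5 to 8 members were listed at 0 in each of the 4 libraries without PARN-1, 0 to 20 in those of TOFU-5 degron; disl-2(how27), 1 to 36 in those of TOFU-5 degron, and none in the other steady-state libraries. The 20 belonged to the 2 h replicate 2 of TOFU-5 degron; disl-2(how27), and the 6 h and 12 h libraries of TOFU-5 degron had 13 to 36. That 2 h library was shallow, at 10851356 reads. In TOFU-5 degron the 6 h replicate 1 had 8807176 reads and 33 members at 0, and the 12 h replicate 1 had 10241762 reads and 36. No other time-course library was as shallow as these, and the part of depth in the zeros was not tested.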

How the data were processed

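Small RNAs of whole Caenorhabditis elegans adults were sequenced after PIR-1 treatment, per the labels' protocols. Trim Galore and Bowtie are named per the submitters' processing notes, with versions and genome build not given in the sources used here. The authors deposited a table of 14680 piRNAs in RPM, reads per 1000000 reads, with class and clone names. In it 1 piRNA was listed on more than 1 row, and its rows were merged. Chromosome positions and enclosing genes were taken from RefSeq gene annotation. The most frequent positive value in each column was taken as 1 read. On that scale 85.8% to 88.2% of values were whole reads within 0.01, and depth followed from it. Reads without molecular identifiers are not independent molecules, so floors cover counting error only. Another 10 samples were not analysed here.

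Values were tested as log2(RPM + 0.5) with limma 3.58.1 in R 4.3.3, with an intensity trend and Benjamini-Hochberg adjustment over the 5614 piRNAs averaging at least 1 RPM in the 4 control libraries. None of the tested comparisons used those libraries. Slopes on hours were fitted over 20 libraries, and fold changes of low piRNAs are understated on this scale. With 2 libraries a group, an exact permutation test of a single value cannot go below p = 0.333, so none was made. The labels do not say whether the 2 libraries of a group are separate cultures, and the p-values cover only their spread, possibly a technical one. No replicate pair differed by less than sampling noise. The procedure was tested on simulated data.

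Named members were, for each comparison, up to 4 of the largest rises and falls among members with an adjusted p under 0.05, libraries that do not overlap, whole reads and a mean of at least 2 RPM. The highest group means, the most zeros, the limits of the rule and members called in 3 comparisons or in opposite directions were named too. The members and lists were chosen with earlier results of these data known. Alternatives were other pseudocounts (0.1 and 2 RPM), other filters, rescaling to equal medians, a replicate block, limma voom on estimated reads and leaving out each library.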

Additional observations from a re-analysis of the deposited data

Results flagged for a closer look

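4 low-abundance Oogenic piRNAs were called in opposite directions in comparisons that share no library, the widest of 40 such members. The differences between backgrounds were not tested.

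The piRNA 21ur-5045 fell in henn-1; disl-2(how18), to 7.48 and 8.14 RPM, against 22.6 and 35 RPM in henn-1 (log2 -1.79, limma adjusted p = 0.0187), and rose in pup-1(how20); disl-2(how27) (log2 2.57). The reverse held for 21ur-5485, with a log2 change of 2.05 in henn-1; disl-2(how18) and -1.99 in pup-1(how20); disl-2(how27). A rise of 21ur-5515 was called in parn-1; disl-2(tm5337), at 8.57 and 4.50 RPM against 2.48 and 2.62 RPM in parn-1 (log2 1.14, limma adjusted p = 0.019), and a fall in pup-1(how20); disl-2(how27) (log2 -2.53). The piRNA 21ur-1433, inside rga-5, shares reads with other loci and is uncertain. It stood at 6.08 and 7.62 RPM in henn-1; disl-2(how18) against 3.64 and 1.89 RPM in henn-1 (log2 1.22), at 0.558 and 0.304 RPM in the parn-1; disl-2(tm5337) mutant against 2.87 and 1.29 RPM in parn-1 (log2 -1.41), and at 0.692 and 0.346 RPM in pup-1(how20); disl-2(how27) against 4.74 and 4.38 RPM in pup-1 (log2 -2.33).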

How the results depend on the processing

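Counts of members called depended on the settings, and the cause was not tested. With no filter on low values, 0 rose and 0 fell in henn-1; disl-2(how18), 0 and 0 in parn-1; disl-2(tm5337), 2 and 17 in pup-1(how20); disl-2(how27), 0 and 1 in pup-1(how50); disl-2(tm5337), and 0 and 106 over hours in TOFU-5 degron; disl-2(how27). Rescaling to equal medians gave 18 rises and 123 falls in parn-1; disl-2(tm5337), 142 falls in pup-1(how50); disl-2(tm5337), 1 rise at 0 h, 80 rises and 13 falls over hours in TOFU-5 degron, and 8 and 0 in TOFU-5 degron; disl-2(how27). It turned the slopes of 21ur-3036, 21ur-5419, 21ur-5560 and 21ur-2378 in TOFU-5 degron to 0.0606, 0.0564, 0.0519 and 0.0536 per h, and those of 21ur-2243, 21ur-1724 and 21ur-5560 in TOFU-5 degron; disl-2(how27) to 0.0321, 0.0188 and 0.00888 per h. A filter on the fitted libraries themselves, at 1 RPM on average, left 177 falls over hours in TOFU-5 degron. In TOFU-5 degron; disl-2(how27), 1 rise was left with that filter, with a pseudocount of 0.1, with limma voom and with the replicate block.

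The replicate numbers do not pair the samples by the labels, and differences between same-numbered replicates correlated between -0.09 and 0.35 in the steady-state and 0 h comparisons and between -0.39 and 0.36 in the time course. With the replicate block 71 members rose in henn-1; disl-2(how18), and 2 rose and 15 fell at 0 h. Of 48 named changes, 34 lost their call with no filter, 5 with voom, 3 with the block, 2 with a pseudocount of 2 and 1 with a pseudocount of 0.1. With rescaling 6 lost their call and a further 7 changed sign.

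Leaving out 1 library at a time gave 6 to 191 rises and 12 to 238 falls in henn-1; disl-2(how18), 0 to 65 and 0 to 73 in parn-1; disl-2(tm5337), 10 to 48 and 74 to 206 in pup-1(how20); disl-2(how27), and 4 to 54 and 20 to 122 in pup-1(how50); disl-2(tm5337). It gave 0 to 2 rises and 0 to 2 falls at 0 h, 0 rises and 219 to 310 falls over hours in TOFU-5 degron, 0 to 3 and 60 to 201 in TOFU-5 degron; disl-2(how27), and 0 and 0 for the difference of slopes. The median member was covered by 5.5 to 37 reads in the time course and by 27.5 to 286.5 reads in steady-state libraries.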
